A study of Planococcus citri with 8 samples.

Results

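Of the 40620 gene models counted in the citrus mealybug *Planococcus citri*, 6 are described here, the models of candidates that the study predicted from sequence to be long-chain, geranylgeranyl or cis prenyl synthases, or to resemble them only by a motif. TransIDS2 (g1822) and transIDS4 (g23180) are similar to subunits 1 and 2 of decaprenyl diphosphate synthase, transIDS16 (g21682) to geranylgeranyl diphosphate synthase, and transIDS17 (g35512) to otubain-like ubiquitin thioesterases. CisIDS1 (g1599) and cisIDS9 (g23740) are similar to the catalytic and regulatory subunits of dehydrodolichyl diphosphate synthase. IDS stands for isoprenyl diphosphate synthase. The study listed these candidates by sequence, the 6 were grouped here with earlier results of these data known, and all 6 passed the filter on low counts. RNA-seq of polyadenylated RNA covered adult females in pools, 4 virgin and 4 mated, each of approximately 150 whole insects (approximately 100 mg). The label numbers name the libraries: 2, 3, 5 and 6 are virgin replicates, and 8, 9, 10 and 11 mated. Both groups came from the same laboratory colony, reared on lemons in the dark. Mated females were collected from the main stock once they had made ovisacs with fertilised eggs, and virgin females from lemons kept in other boxes from which male cocoons were removed by hand. Mating, egg laying and rearing box therefore cannot be told apart. In whole insects, fewer cells of a type and less RNA per cell cannot be told apart either. The labelled tissue is the whole animal, which has no defining marker genes, so the label was not checked.

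Prenyl synthases build chains of isoprene units by head-to-tail addition of isopentenyl diphosphate to an allylic diphosphate. Trans enzymes that make long chains supply the tail of ubiquinone, the mobile electron carrier of the mitochondrial respiratory chain, and in many animals the enzyme is a heterodimer of a catalytic and a regulatory subunit. The trans enzyme geranylgeranyl diphosphate synthase makes the chain that anchors small GTPases to membranes. Cis enzymes make the much longer chain of dolichol, the lipid on which the sugar tree for protein N-glycosylation is assembled, and they too work as a catalytic subunit with a regulatory partner. Otubains are known for removing ubiquitin from proteins, and transIDS17 is counted among the candidates because it holds an aspartate-rich motif like that of trans synthases. The study also assayed recombinant proteins for short chains only. TransIDS2 and transIDS17 made geranyl and farnesyl diphosphates at low rates, transIDS17 at the lowest of the active candidates. No such products were detected for transIDS4, transIDS16 or cisIDS1, and cisIDS9 was not assayed for this activity.

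Library totals ran from 29667566 to 50301861 counts, so that 1 count was worth 0.0199 to 0.0337 CPM (a count scaled to a fixed library total). The 6 gene models had between 733 and 3066 counts in each library, far above that floor. Levels below are CPM scaled by edgeR's trimmed mean of M values (TMM), as mean ± SD over 4 pools, and are not corrected for gene length, so levels are compared between libraries and not between genes. Differences are log2 fold changes, positive where the virgin pools are higher. Adjusted p-values are from edgeR's two-sided quasi-likelihood F test over 21179 gene models that passed the filter, with Benjamini-Hochberg adjustment, and a gene is called at an adjusted p under 0.05. Virgin replicate 2 stood apart: on the first principal component (76.9% of the variance) it lay at -8.5, between the other virgin pools (-152.6 to -131.1) and the mated pools (83.3 to 139).

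None (0) of the 6 gene models was called, against 47.7% of all gene models tested. At an unadjusted p under 0.05 there was 1 (transIDS4), against 55.8% of all tested. DESeq2 called 1 (transIDS4) and limma voom 0. No member (0 of 6) had virgin and mated libraries that did not overlap, as 43.2% of all tested gene models did. For 5 of the 6 the 95% interval of the log2 fold change lay within 1 unit of 0 (40.2% of all tested), and for 4 of them, transIDS16, transIDS17, cisIDS1 and cisIDS9, it lay within a 1.5-fold change either way (17.8% of all tested). The median log2 fold change of the 6 was 0.12, beside 0.03 over all tested gene models.

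**Figure D1:**
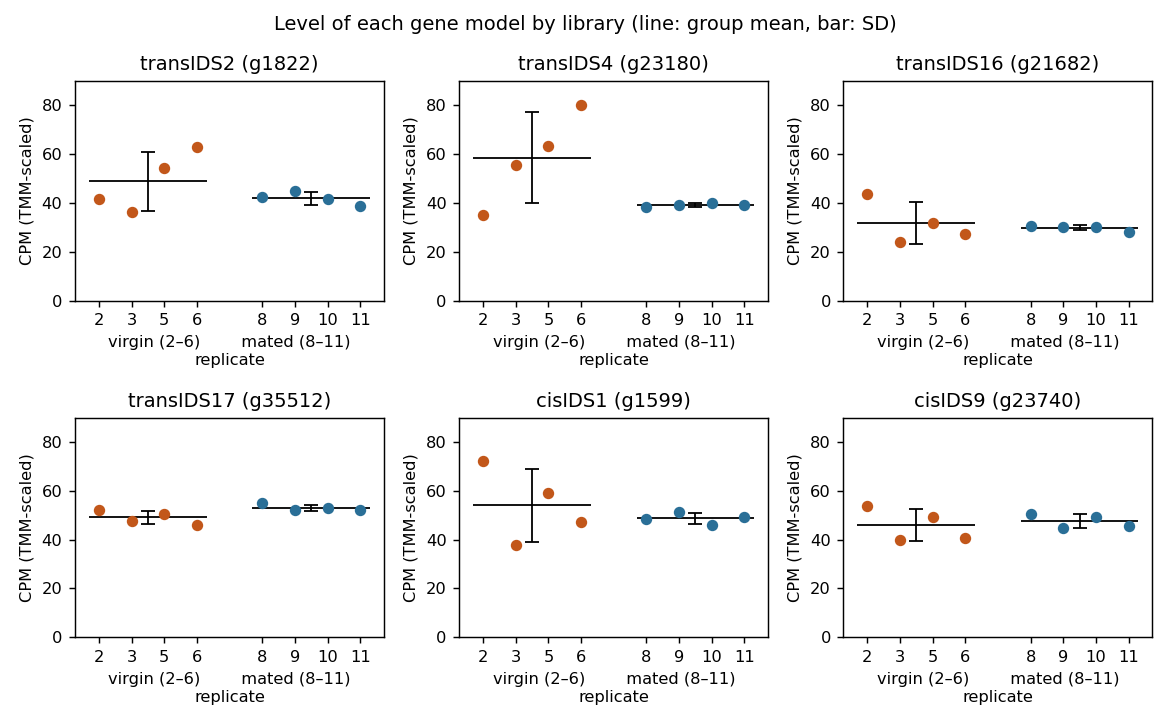
TMM-scaled CPM (vertical axis) of each of the 6 gene models in the 4 virgin (orange) and 4 mated (blue) libraries, by replicate number, with the group mean (line) and SD (bar). The virgin libraries are spread more widely than the mated ones in every panel, and transIDS4 is the panel with the largest gap between the group means, 58.5 against 39.2 CPM.

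Of the long-chain synthase subunits, transIDS4 was the member with the largest difference in mean. TransIDS4, the candidate regulatory subunit (scaffold PCITRI_00123 of the Pcitri.v1 genome, InterPro entry polyprenyl synthetase), had 35.1, 55.5, 63.3 and 80.0 CPM in virgin replicates 2, 3, 5 and 6. In mated replicates 8, 9, 10 and 11 it had 38.4, 39.3, 40.1 and 39.0 CPM. The 4 mated pools thus held nearly the same level, 3 virgin pools lay above all of them, and virgin replicate 2 was the lowest of all 8 libraries. The virgin mean was 58.5 ± 18.6 CPM and the mated mean 39.2 ± 0.705 CPM. The log2 fold change was 0.58 (standard error 0.22, 95% interval 0.08 to 1.07), a fold of 1.49, and did not pass (edgeR adjusted p = 0.0573). An exact two-sided permutation test of 4 against 4 libraries gave p = 0.143.

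Whether transIDS4 was called depended on virgin replicate 2, and also on the scaling and the test. Without that library the virgin mean was 66.2 ± 12.5 CPM, the log2 fold change was 0.75 and the adjusted p was 0.00139 (edgeR). The call was also made at 0.56 with DESeq2 (adjusted p = 0.0466), at 0.60 with library size as the only scaling (adjusted p = 0.0472, edgeR) and at 0.69 with limma voom and quality weights for samples (adjusted p = 0.00246). In the other direction, it was 0.39 without virgin replicate 6, the library with the highest level (adjusted p = 0.139, edgeR). Over all alternatives the adjusted p ran from 0.00139 to 0.139, and the log2 fold change was above 0 in each.

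TransIDS2, the candidate catalytic subunit of the same enzyme (PCITRI_00036, polyprenyl synthetase), had 41.8, 36.2, 54.5 and 63.0 CPM in the virgin pools, in the same order of replicates. The mated pools had 42.6, 44.8, 41.5 and 38.6 CPM. Virgin replicates 5 and 6 were above all mated pools, virgin replicate 3 was below all of them, and virgin replicate 2 lay among them. The log2 fold change was 0.22 (standard error 0.17, 95% interval -0.17 to 0.62, adjusted p = 0.313, edgeR), from 48.9 ± 12.1 and 41.9 ± 2.58 CPM, and it was 0.08 without virgin replicate 6. A second gene model of the transIDS2 sequence cluster, g18384 on PCITRI_07608, had 1 count in virgin replicate 3 and 0 in the other 7 libraries. Only uniquely mapped read pairs were counted, so reads shared by near-identical copies would be left out of both. Whether g18384 and g1822 are near-identical was not checked, so the levels of both are uncertain.

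Since the subunits of a heterodimer act together, their ratio was taken within each library, where library scaling cancels. The log2 ratio of transIDS4 over transIDS2 was -0.25, 0.61, 0.22 and 0.34 in virgin replicates 2, 3, 5 and 6. It was -0.15, -0.19, -0.05 and 0.01 in mated replicates 8, 9, 10 and 11. The mated pools were held within a narrow band, 3 virgin pools were above that band and virgin replicate 2 was below it, so the groups overlapped. The means were 0.23 ± 0.36 in virgin and -0.09 ± 0.09 in mated females, a difference of 0.33 that was 0.49 without virgin replicate 2 and 0.20 without virgin replicate 3. No test was run on this ratio, and it does not give the ratio of the proteins, since neither gene length nor translation enters it.

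**Figure D2:**
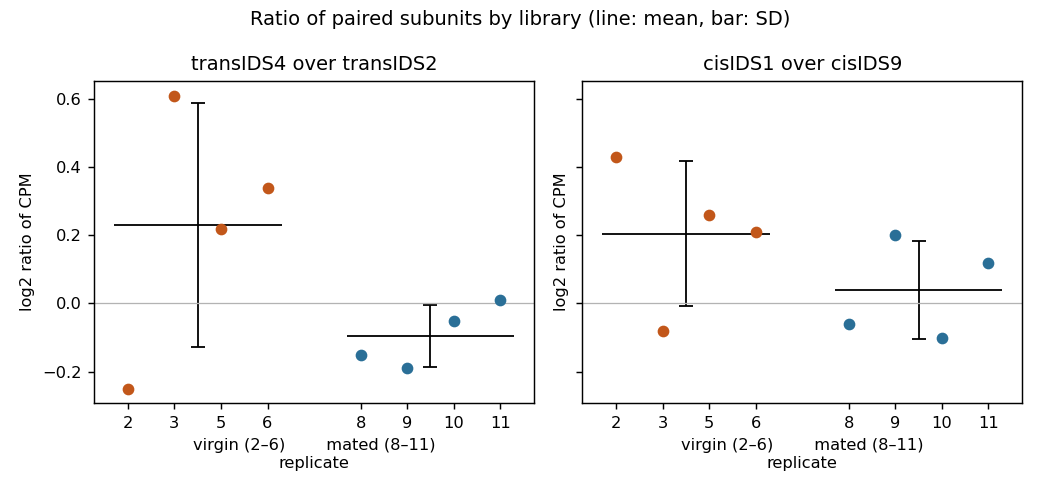
Log2 ratio of CPM (vertical axis) of transIDS4 over transIDS2 (left) and of cisIDS1 over cisIDS9 (right) in each virgin (orange) and mated (blue) library, with group mean (line) and SD (bar). In the left panel virgin replicate 2, at -0.25, is the lowest library and the other virgin pools are at 0.22 or above, while the mated pools lie between -0.19 and 0.01.

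The cis synthase subunits did not differ in mean beyond their spread. CisIDS1, the candidate catalytic subunit (PCITRI_00031), had 72.2, 37.9, 59.3 and 47.1 CPM in virgin replicates 2, 3, 5 and 6. The mated pools had 48.5, 51.2, 45.9 and 49.4 CPM. Virgin replicate 2 held the highest and virgin replicate 3 the lowest level of the 8, with the mated pools in between. The log2 fold change was 0.15 (standard error 0.19, 95% interval -0.27 to 0.58, adjusted p = 0.524, edgeR), from 54.1 ± 14.9 and 48.7 ± 2.21 CPM. Its sign rested on virgin replicate 2, since it was -0.03 without that library.

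CisIDS9, the candidate regulatory subunit (PCITRI_00141, with no InterPro entry in the annotation used here), had 53.7, 40.0, 49.4 and 40.8 CPM in the virgin pools. The mated pools had 50.6, 44.6, 49.3 and 45.6 CPM. The order of its virgin libraries was that of cisIDS1, highest in virgin replicate 2 and lowest in virgin replicate 3. The log2 fold change was -0.05 (standard error 0.12, 95% interval -0.32 to 0.23, adjusted p = 0.767, edgeR), from 46.0 ± 6.69 and 47.5 ± 2.88 CPM, and it was 0.02 without virgin replicate 3 and 0.01 without virgin replicate 6. The study's own value for cisIDS9, averaged over all sequences of its cluster, was instead positive. It was marked as significant for at least some sequence of that cluster. Which sequences entered that average was not checked here. The log2 ratio of cisIDS1 over cisIDS9 was 0.43, -0.08, 0.26 and 0.21 in the virgin and -0.06, 0.20, -0.10 and 0.12 in the mated pools. Virgin replicate 3 was within the mated range and the other 3 virgin pools were above it, by as little as 0.21 against 0.20. The difference in mean was 0.17, and 0.09 without virgin replicate 2.

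TransIDS16, the candidate geranylgeranyl diphosphate synthase (PCITRI_00077), had 43.7, 24.0, 31.8 and 27.5 CPM in virgin replicates 2, 3, 5 and 6. The mated pools had 30.7, 30.3, 30.1 and 28.3 CPM. As for cisIDS1, virgin replicate 2 was the highest and virgin replicate 3 the lowest of all 8 libraries. The log2 fold change was 0.09 (standard error 0.18, 95% interval -0.32 to 0.50, adjusted p = 0.7, edgeR), from 31.8 ± 8.6 and 29.8 ± 1.08 CPM, and it was -0.11 without virgin replicate 2.

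TransIDS17, the otubain-like candidate (PCITRI_00829, InterPro entry Peptidase C65, otubain), was the steadiest of the 6. It had 52.1, 47.7, 50.6 and 46.2 CPM in the virgin pools. The mated pools had 54.9, 52.2, 53.1 and 52.0 CPM. The groups overlapped only in virgin replicate 2, which was above mated replicate 11 by 52.1 against 52.0 CPM. The log2 fold change was -0.11 (standard error 0.08, 95% interval -0.30 to 0.07, adjusted p = 0.281, edgeR), from 49.1 ± 2.68 and 53.0 ± 1.31 CPM, and an exact two-sided permutation test gave p = 0.0571. The 70 possible splits of 4 against 4 libraries allow no p below 0.0286.

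**Figure D3:**
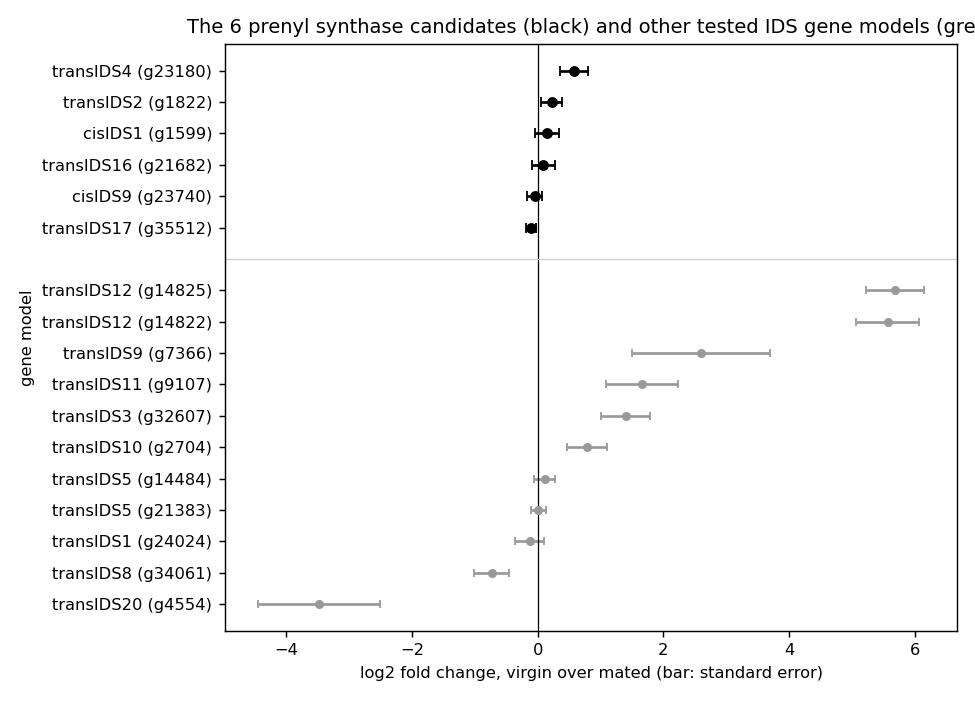
Log2 fold change of virgin over mated females (horizontal axis) with its standard error for the 6 gene models (black, top) and for the 11 tested gene models of other IDS candidates (grey). The black points lie between -0.11 and 0.58, and the grey ones between -3.48 (transIDS20, without canonical aspartate-rich motifs) and 5.69.

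Of the 16 gene models of other IDS candidates, 11 passed the filter, and 4 of these were called higher and 1 lower in virgin females. The 1 lower was g4554 (transIDS20), at -3.48, with 257 counts summed over the 8 libraries. For transIDS20 the study found neither canonical aspartate-rich motifs nor similar sequences, so it may not be a synthase. TransIDS1 (g24024), also among the 11, lacks those motifs and resembles E3 ubiquitin ligases. The log2 fold changes of the 11 ran from 0.01 to 5.69 in size. No test compared them with the 6 gene models as a group. The transIDS12 gene models g14822 and g14825 lay at 5.57 and 5.69, and those of transIDS5, g21383 and g14484, at 0.01 and 0.11. The other gene models of dehydrodolichyl diphosphate synthase-like candidates, g40262 (cisIDS2) and g20738 (cisIDS3), had 15 and 25 counts over the 8 libraries and were not tested, which leaves cisIDS1 and cisIDS9 as the cis candidates with levels that could be compared.

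Stability was described by the SD of log2 CPM over all 8 libraries, which mixes the difference between groups with the spread inside them. It was 0.0824 for transIDS17, and 99.4% of all tested gene models had a larger one. CisIDS9 followed at 0.151, with 93.6% of gene models above it. The SD of transIDS16 was 0.247, that of transIDS2 0.263 and that of cisIDS1 0.274, with 80.1%, 77.8% and 76.3% of gene models above. That of transIDS16 rested on virgin replicate 2 and was 0.139 without it. TransIDS4 was at 0.427, with 57.8% above, and its highest library was 2.28 times its lowest, against 1.19 times for transIDS17. The median over all tested gene models was 0.511. The SD was smaller at higher levels, and the 15104 gene models whose log2 CPM averaged 1 or more are a closer background. Their median was 0.394, and 99.1% of them lay above transIDS17, 91.1% above cisIDS9 and 72.8% above transIDS16. For transIDS2, cisIDS1 and transIDS4 the shares were 69.7%, 67.8% and 45.8%. The 6 gene models averaged 4.93 to 5.67, well above that cutoff, so these shares can still make them look steadier than gene models of like level. The share among gene models of like level was not computed. Of the 11 other IDS gene models tested, 8 had a larger SD than transIDS4, while that of the transIDS5 model g21383 was 0.068, below transIDS17. The 8 include both transIDS12 gene models, and g7366, g34061, g4554, g9107 and g2704, with 154 to 458 counts summed over the 8 libraries. The 6 gene models had 733 counts or more in each library, so these SDs are not compared at like level.

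**Figure D4:**
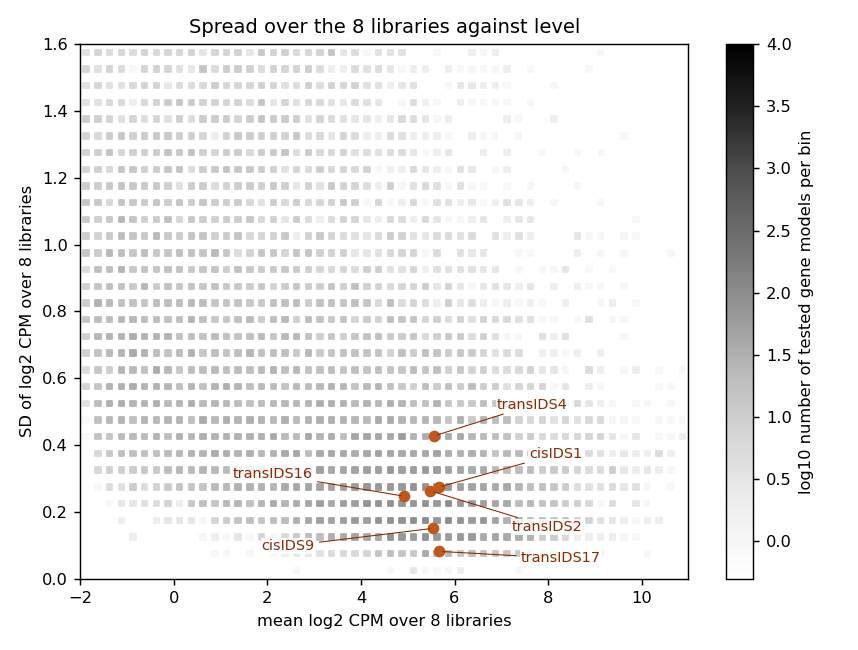
SD of log2 CPM over the 8 libraries (vertical axis) against mean log2 CPM (horizontal axis) for the 6 gene models (orange), over the number of tested gene models per bin (grey, log10 scale); bins above an SD of 1.6 or outside the range of levels drawn are left out. TransIDS17 (0.0824) lies at the lower edge of the grey field and transIDS4 (0.427) highest of the 6.

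Inside the groups, the virgin pools varied more than the mated pools for 6 of 6 gene models, which was also so for 74.6% of all tested. Without virgin replicate 2 it was still 6 of 6, against 51% of all tested. The coefficient of variation of the virgin pools was 31.8% for transIDS4, 27.5% for cisIDS1, 27.1% for transIDS16, 24.8% for transIDS2, 14.5% for cisIDS9 and 5.46% for transIDS17. Without virgin replicate 2 it was 18.9% for transIDS4, 22.3% for cisIDS1, 14.1% for transIDS16, 26.7% for transIDS2, 12% for cisIDS9 and 4.67% for transIDS17, so that transIDS2 and not transIDS4 was then the most variable, a comparison added after the data were seen. In the mated pools it was between 1.8% (transIDS4) and 6.15% (transIDS2). TransIDS4 was the extreme case, with an SD of log2 CPM of 0.499 over the virgin and 0.0259 over the mated pools, 19.3 times apart, and 0.267 in virgin females without virgin replicate 2.

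The gene models fell into different orders of libraries. After each profile was centred on its mean, the root mean square difference in log2 CPM over the 8 libraries was 0.088 between transIDS16 and cisIDS1 and 0.094 between transIDS17 and cisIDS9, the smallest of the 15 pairs. It was 0.55 between transIDS4 and transIDS16, the largest of them. The paired subunits were not the closest: transIDS2 and transIDS4 were 0.28 apart and cisIDS1 and cisIDS9 0.177. Without virgin replicate 2, an alternative added after the data were seen, other pairs were the closest, transIDS16 and cisIDS9 at 0.068 and transIDS17 and cisIDS9 at 0.07, and transIDS4 and cisIDS9 were the farthest apart at 0.47. A small difference here can also mean that both profiles are flat, as for transIDS17 and cisIDS9. Libraries share depth and composition across all genes, so these values are a description.

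Among 10364 other annotated gene models whose log2 CPM averaged 1 or more, the closest profile to transIDS2 was that of g26656, a PAS fold gene (0.111), followed by g27495, the gamma-secretase component nicastrin (0.117), where the median gene model was 0.435 away. The closest to transIDS4 were g24784, a sugar transporter-like gene (0.104), and g6681, a WD40 repeat gene (0.11), with a median of 0.55. TransIDS16 had g31168, a U1-C type zinc finger gene (0.079), and g19254, an ABC-2 type transporter (0.089). The same zinc finger gene was second for cisIDS1 (0.114), behind g35115, an Hsp70 family chaperone (0.102). TransIDS17 had an actin family gene, g33421 (0.037), and g5440, the cap-binding translation factor eIF4E (0.041), and cisIDS9 had g38752, a tetratricopeptide repeat gene (0.035), and g31511, a nuclease superfamily gene (0.056). These neighbours depended on virgin replicate 2: without it, g26656 and g33421 were still the closest to transIDS2 and transIDS17, whereas g19254 ranked 69 for transIDS16 and g31168 ranked 54 for cisIDS1. The adjusted p of the 11 genes named here ran from 0.113 to 0.887 (edgeR).

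The pathways that use the products of these enzymes were described by lists of InterPro entries, in which a gene appears only if the authors' table annotates it. Some entries matched no gene: 10 of 17 for ubiquinone synthesis, 9 of 22 for dolichol and N-glycan assembly, 7 of 13 for protein prenylation and 3 of 9 for ubiquitin removal, so the lists cover less than their names say. Of all tested gene models, 26.4% were called higher and 21.3% lower in virgin females. Without virgin replicate 2, of 21941 gene models tested, 6891 were called higher and 6724 lower. With all 8 libraries it was 5595 and 4514 of 21179, so list counts without that library stand beside more calls throughout.

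Genes listed under ubiquinone synthesis, which consumes the long chain, were higher in virgin females in 6 of 11 cases (54.5%) and lower in 0. Their median log2 fold change was 0.45, against 0.03 over all tested gene models. The UbiA and UbiB entries cover families, and which of their genes act in ubiquinone synthesis is not settled by the annotation. The UbiB domain gene g29829 (PCITRI_00434), of the family of COQ8 kinase-like proteins, stood at 91.4 ± 23.3 CPM against 41.7 ± 3.96 CPM in mated pools and rose by 1.13 on the log2 scale (edgeR, standard error 0.19, adjusted p = 0.00294). The COQ10 gene g8534 (PCITRI_02244), whose product binds coenzyme Q, rose by 0.69 (edgeR, standard error 0.10, adjusted p = 0.00203), to 27.7 ± 1.4 CPM from 17.2 ± 1.35 CPM in mated pools. The remaining 4 are named after their values were seen: Coq7 (g34272), the hydroxylase of a late step, at 0.59, Coq4 (g24400) at 0.57, the COQ5 methyltransferase (g27267) at 0.45 and a gene of the UbiA family (g32456), to which the enzyme that attaches the prenyl tail belongs, at 0.35, with adjusted p from 0.00746 to 0.0242 (edgeR). Virgin and mated libraries did not overlap for 7 of the 11 genes, against 43.2% of all tested, and the 7 were the 6 called genes and the UbiB domain gene g22081, which did not pass and is named after its values were seen. Virgin replicate 2 was the lowest virgin library in 4 of the 6. The call of g32456 was lost without virgin replicate 5 (log2 fold change 0.27) and without mated replicates 8 (0.32), 10 (0.31) or 11 (0.34), and also with upper-quartile factors (0.27) and with no filter beyond 1 count (0.32). The 5 that did not pass had log2 fold changes of 0.13 to 0.47 (adjusted p from 0.0719 to 0.263, edgeR). Summed over the 11 genes the virgin libraries were at 489 to 544 CPM, with virgin replicate 2 the highest, and the mated ones at 357 to 399 CPM.

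**Figure D5:**
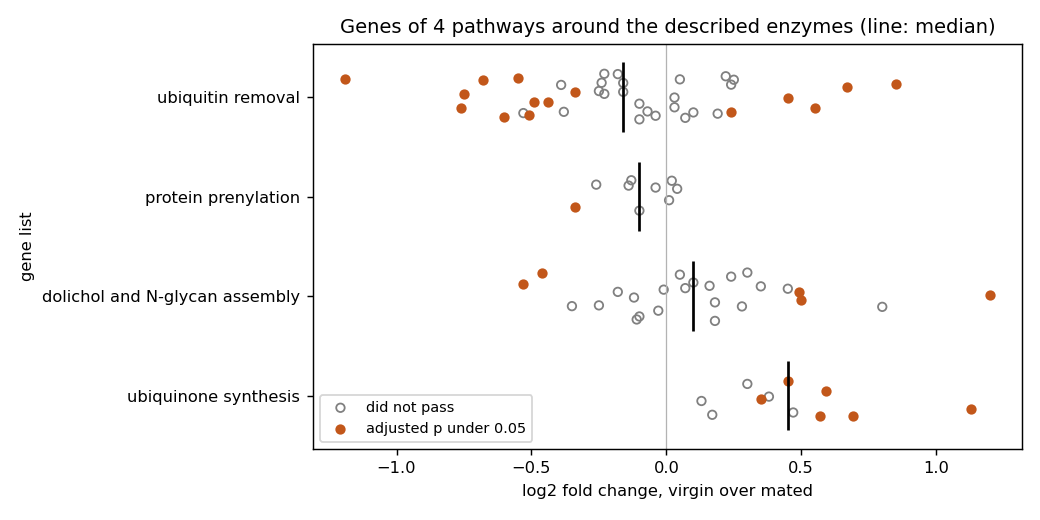
Log2 fold change of virgin over mated females (horizontal axis) for the tested genes of 4 lists around the described enzymes; filled points passed an adjusted p under 0.05 (edgeR), open points did not, and the black line is the median of the list. All 11 genes of ubiquinone synthesis lie above 0, with a median of 0.45, and the other medians lie between -0.16 and 0.10.

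Dolichol and N-glycan assembly, where the product of the cis enzyme is used, held 25 genes, of which 3 rose, 2 fell and 20 did not pass, with a median of 0.10. A gene for subunit 3 of dolichol-phosphate mannosyltransferase (g22319, PCITRI_00100), which holds the mannose-donor enzyme at the membrane, rose by 1.20 (edgeR, standard error 0.16, adjusted p = 0.00156). Its level was 42.7 ± 6.46 CPM, against 18.6 ± 3.1 CPM in mated pools. A GPI mannosyltransferase gene (g30893, PCITRI_00492) followed at 0.50 (adjusted p = 0.00526, edgeR), and ALG3 (g35082, PCITRI_00797), which adds mannose to the dolichol-linked sugar tree and was named after its values were seen, at 0.49 (adjusted p = 0.00649, edgeR). ALG11 (g9251, PCITRI_02380), which adds mannose on the cytosolic side, was lower in virgin females at -0.53 (adjusted p = 0.016, edgeR), as was another GPI mannosyltransferase gene (g935) at -0.46 (adjusted p = 0.0316, edgeR). The GPI mannosyltransferase entry covers a family with enzymes of the GPI anchor and of the N-glycan tree, and which of these g30893 and g935 are is not settled by the annotation. A second gene annotated as mannosyltransferase subunit 3, g4561, stood at 0.45 and did not pass (adjusted p = 0.0823, edgeR). That gene is named after its values were seen. The call of g935 was lost without any 1 of the libraries other than virgin replicate 2 (log2 fold changes from -0.40 to -0.49). Without virgin replicate 2, 8 genes of the list rose and 4 fell, with more calls over all gene models as well. The summed level was 1560 to 2560 CPM in virgin females, with virgin replicate 2 the lowest, and 1810 to 2040 CPM in mated females.

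Protein prenylation, which takes up farnesyl and geranylgeranyl chains, held 9 genes, of which 0 rose (0 also at an unadjusted p under 0.05 and with DESeq2 or limma voom) and 1 fell by edgeR, with a median of -0.10. The 1 was a CAAX amino terminal protease gene (g4838, PCITRI_01649), of a family that includes enzymes trimming prenylated proteins, at -0.34 (adjusted p = 0.0397, edgeR). It did not pass once virgin replicate 3, virgin replicate 6 or any 1 mated pool was left out (log2 fold changes from -0.29 to -0.38). Without virgin replicate 2 there were 3 genes of the list that fell, with more calls over all gene models as well. The list for ubiquitin removal, the activity of otubains, had 38 genes, of which 5 rose and 10 fell, with a median of -0.16. An OTU domain gene (g2878, PCITRI_01392) rose by 0.85 (adjusted p = 0.00183, edgeR), and a Peptidase C19 gene (g30087), of the ubiquitin-specific proteases, rose by 0.45 (adjusted p = 0.00384, edgeR). Genes g809 and g30842, also of Peptidase C19, were lower at -0.60 (adjusted p = 0.00205, edgeR) and -0.55 (adjusted p = 0.00192, edgeR). Without virgin replicate 2, 20 genes of this list fell, with more calls over all gene models as well.

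Summed levels of 4 of the 5 marker lists for what a whole female holds did not overlap between the groups, and those of germline small RNA genes did. Summed over 42 genes of yolk and lipid transport, of which 38 share a lipase/vitellogenin entry that also covers lipases, virgin libraries were at 2990 to 25100 CPM and mated ones at 64500 to 137000 CPM, with virgin replicate 2 the highest of the virgin libraries; 12 of these genes were called higher and 7 lower. The 24 muscle genes, some of which belong to myosin classes that other cells use, summed to 4950 to 11600 CPM in virgin and 2320 to 4060 CPM in mated females, with virgin replicate 2 the lowest virgin library (13 higher, 3 lower). The 30 genes of dividing cells were at 1450 to 2300 CPM against 2520 to 3060 CPM (by edgeR 0 higher, 0 also at an unadjusted p under 0.05, and 13 lower), the 25 of germline small RNA at 5510 to 6680 CPM against 5170 to 5860 CPM (2 higher, 9 lower), and the 8 of the sperm axoneme at 175 to 212 CPM against 150 to 165 CPM (4 higher, 1 lower). Of the 6 entries of the sperm axoneme list, 5 matched no gene. Its 8 genes held dynein heavy chain, sperm-tail repeat or Major sperm protein domains, and the 1 lower gene (g7893, -0.28) held the last. Whether these genes are expressed in sperm was not checked. The part of the shifts in the marker lists in the levels of transIDS4 and of the ubiquinone genes was not tested.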

How the data were processed

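For each library the authors used CLC Genomics Workbench 10.0.1 to trim paired-end reads, map them to Pcitri.v1 (costs of 2 per mismatch and 3 per insertion or deletion; at least 0.9 of a read's length aligned, at 0.9 similarity) and count the pairs that mapped uniquely to a gene model. The deposited counts are whole numbers of read pairs and were used as deposited. Libraries were prepared to keep strand, but no source used here gives whether strand entered the counting, which makes values of overlapping or antisense genes uncertain. The authors also deposited log2 CPM values, tried here as an alternative, and log2 fold changes and adjusted p-values of their own for 17669 genes; of that deposited table only the InterPro annotation was used. The authors' filter was not given in those sources. The submitters' processing notes name limma 3.34.9, edgeR 3.20.9 and R 3.4.2.

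The analysis ran edgeR 4.0.16 under R 4.3.3 (filterByExpr, TMM, glmQLFit and glmQLFTest on the group alone, all 8 libraries; log2 CPM with prior count 2); alternatives used DESeq2 1.42.0 and limma 3.58.1. The code was tested on simulated data. Wald standard errors gave the 95% intervals. Pools within a group were distinct libraries (chi-square over degrees of freedom from 26 to 368). The paper calls the pools biological replicates and the labels name no separate cultures, so the p-values measure the spread between these pools. The groups share no replicate numbers, and no block was fitted. Genes named are the 6 models, g18384, up to 2 called genes each way per pathway list with the smallest p, and the 2 annotated genes with the profile closest to each model; other IDS models and some list members were named after their values were seen. The members and lists were chosen with earlier results of these data known. No sequence is shown, since no matched sequence table was used here.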

Additional observations from a re-analysis of the deposited data

How the results depend on the processing

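Among 17 other settings and an exact permutation test, transIDS2 (log2 fold changes of 0.08 to 0.35 with 1 library left out) and transIDS17 (-0.15 to -0.08) kept their direction and were never called. TransIDS4 was called, and the count of the 6 models called higher was then 1, with DESeq2 (0.56), library size as the only scaling (0.60), limma voom with quality weights (0.69) and without virgin replicate 2 (0.75); with 1 library left out it ran from 0.39 to 0.75 and the count from 0 to 1. Signs turned for transIDS16 (-0.13 with quality weights, -0.11 to 0.21 with 1 library left out), cisIDS1 (-0.12, and -0.03 to 0.29) and cisIDS9 (-0.14 to 0.02 with 1 library left out), all without a call. The cause was not tested.

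Genes called higher in dolichol and N-glycan assembly were 5 with DESeq2, 8 with quality weights and 3 to 8 with 1 library left out, and genes called lower were 1 with library size only, 4 with quality weights and 1 to 4 with 1 library left out. Prenylation genes called lower were 2 with upper-quartile factors, 0 with no filter, 4 with quality weights and 0 to 3 with 1 library left out, and ubiquitin removal genes called lower 20 with quality weights and 8 to 20 with 1 library left out. Ubiquinone synthesis genes called higher were 5 to 7 throughout. Calls over all genes were 5595 higher and 4514 lower, against 5058 and 5334 with upper-quartile factors and 7199 and 6877 with quality weights. Without virgin replicate 2 they were 6891 and 6724. Under other scalings and prior counts, the SD over the libraries ran from 0.407 to 0.428 for transIDS4 and from 0.0825 to 0.115 for transIDS17. With 1 library left out it ran from 0.319 to 0.451 and from 0.0614 to 0.0958. Other scalings cannot move the subunit ratios, since scaling cancels within a library. With 1 library left out, the group difference in log2 ratio ran from 0.20 to 0.49 (transIDS4 over transIDS2) and 0.09 to 0.26 (cisIDS1 over cisIDS9). No paired analysis was possible because the virgin and mated pools share no replicate numbers. All 6 models had 733 counts or more in each library.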
